A study of Mus musculus with 15 samples.

Results

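The genes described here move fatty acids into fat cells, store them, make them and release them. They are the 8 genes Fabp4, Lpl, Cd36, Plin2, Scd1, Fasn, Acaca and Pnpla2, chosen by name, and all 8 had a row among the 8446 rows of the table. They were read in 15 single Tomato+ cells from the inguinal white fat, a subcutaneous depot, of adult C57BL/6 mice of the genotype Prrx1-CreERT;Tomato. In this strain a tamoxifen-activated Cre recombinase driven by Prrx1, a homeobox gene of limb and connective tissue mesenchyme, switches on the Tomato reporter for good. All animals had received tamoxifen at 2 mg per 30 g of body weight daily over 3 days, and no group lacks it. Minced fat was digested with collagenase, the pellet after centrifugation was sorted for Tomato, and cells were picked singly under a microscope. Lipid-filled adipocytes tend to float in such a step. The 15 cells form 1 group, are numbered 1 to 15, and share an unknown number of animals, so all 15 together stand for 1 sample and nothing here carries a p-value.

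Fat tissue takes up fatty acids along a short relay. Lipoprotein lipase (Lpl) splits the triglycerides of circulating lipoproteins, the membrane protein Cd36 helps the released fatty acids into the cell, and the carrier Fabp4 binds them in the cytosol. Perilipin 2 (Plin2) coats the droplets in which they are stored as triglyceride. Cells can also make fatty acids from acetyl-CoA through acetyl-CoA carboxylase (Acaca) and fatty acid synthase (Fasn), and the desaturase Scd1 introduces a double bond into the product. Pnpla2, the adipose triglyceride lipase, starts the breakdown of stored triglyceride. Fibroblastic progenitors of fat gain Fabp4, Lpl and Cd36 as they commit to the adipocyte lineage. Cd36, Fabp4 and Lpl are also known from endothelial cells or macrophages.

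Values are log2(FPKM + 1), where FPKM is the number of sequenced fragments scaled by transcript length and library size, and a gene is called detected at 1 FPKM or more. The authors' values share a single distribution over cells, so each cell has 4369 rows at 1 FPKM or more and the same top value, 13.69. A value therefore reflects the rank of a gene within its cell. Read depth is unknown, and between 930 rows (cell 8) and 1974 rows (cell 11) stood at a cell's lowest value. The cells carried stromal genes: of 16 stromal progenitor markers 12 were analysed, each present in 13 or more cells. All 12 thus reached 8 or more cells, as did 46.8% of all rows. Among them Col1a2 had a median of 10.64. Cell 13 had the lowest mean of this list (5.63), with Pdgfra at 0.20 and Mmp2 at 0.73. Of 11 mural markers 5 were analysed, and their mean was 8.72 in cell 5, 5.83 in cell 13 and 0.39 to 2.37 in the other cells. Cell 13 also had the highest mean of the 5 analysed cell cycle genes of 14, at 8.21 against at most 3.01 elsewhere.

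Promoter sequences are shown for Cd36 and Plin2, whose levels differed widely between cells, and for Fasn, which was low in most of them. Each is the 250 bases before a transcription start in RefSeq's GRCm38.p6 annotation, 5′ to 3′ on the strand of the gene, and 5 of the 8 genes had an entry (Cd36, Plin2, Fasn, Acaca and Pnpla2). Capitals mark a match, on either strand, to the nuclear receptor core motif AGGTCA, the CCAAT box or the GC box GGGCGG. The start used for Cd36 lies inside the annotated gene.
Cd36, chr5:17835897-17836146, minus strand: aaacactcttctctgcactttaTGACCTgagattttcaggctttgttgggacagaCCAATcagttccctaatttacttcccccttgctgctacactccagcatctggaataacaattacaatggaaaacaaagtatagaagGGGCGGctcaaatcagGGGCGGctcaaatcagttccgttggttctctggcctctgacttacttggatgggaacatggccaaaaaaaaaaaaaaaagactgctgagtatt
Plin2, chr4:86670060-86670309, minus strand: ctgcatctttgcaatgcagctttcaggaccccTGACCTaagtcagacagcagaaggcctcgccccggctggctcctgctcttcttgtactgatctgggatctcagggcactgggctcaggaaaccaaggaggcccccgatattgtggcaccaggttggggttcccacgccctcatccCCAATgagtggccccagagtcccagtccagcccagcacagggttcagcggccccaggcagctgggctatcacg
Fasn, chr11:120824548-120824797, minus strand: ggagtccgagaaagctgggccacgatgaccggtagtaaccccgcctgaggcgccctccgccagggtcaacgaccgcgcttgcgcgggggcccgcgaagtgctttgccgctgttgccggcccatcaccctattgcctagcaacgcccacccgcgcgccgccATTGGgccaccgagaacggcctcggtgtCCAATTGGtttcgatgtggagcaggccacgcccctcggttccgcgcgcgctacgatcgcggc

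The windows of Cd36 and Plin2 each held AGGTCA once, on the opposite strand, beginning at −228 and −218 (positions counted from the start), and 14.02% of 32851 promoter windows of this length hold it. A CCAAT box stood at −195 in Cd36 and at −73 in Plin2. Fasn had 3 matches to CCAAT, of which 2 overlap on opposite strands as CCAATTGG, and 33.8% of the windows hold at least 1. GGGCGG was found 2 times in Cd36, within a repeated stretch, and in 32.7% of all windows. The other motifs searched were TATAAA (in 12.4% of windows), CACGTG (6.02%), TCACNCCAC (1.05%) and a direct repeat of AGGTCA with 1 base between the copies (0.0335%). They had no match in these 3 windows, which says only that these letters are not there. In the windows of Acaca and Pnpla2, which are not printed, the only matches to any motif searched were 2 of GGGCGG in Pnpla2.

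Fabp4 and Lpl were high in most of these cells, Cd36 in 5 of them, and Scd1, Fasn, Acaca and Pnpla2 were low in most. By median level the order was Fabp4 (9.06), Lpl (7.74), Plin2 (6.59), Cd36 (2.05), Scd1 (0.93), Fasn (0.24), Acaca (0.23) and Pnpla2 (0.18). Neighbours in this order had overlapping quartile ranges in each of the 7 steps, and Fabp4 exceeded Lpl in 10 of 15 cells, so the order of neighbours is loose. Of the 8 genes, 4 were detected in 8 or more cells, where 46.8% of all rows reached that mark. These 4 were the uptake genes and Plin2.

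**Figure D1:**
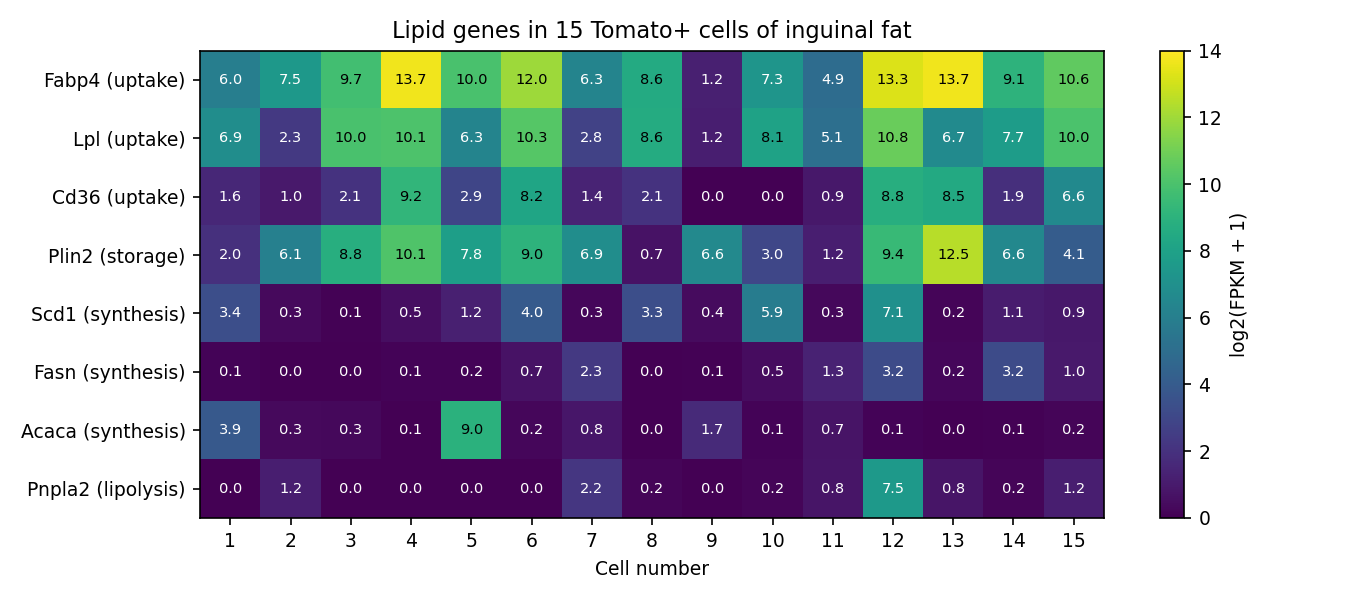
Level of each of the 8 lipid genes (rows, with role) in each of the 15 cells (columns), as log2(FPKM + 1) in color and digits. Fabp4 and Lpl are above 1 in every cell, Cd36 is high in cells 4, 6, 12, 13 and 15, and the synthesis and lipolysis genes are near 0 in most cells.

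Fabp4 (ENSMUSG00000062515, chromosome 3, 10204088 to 10208576, minus strand of GRCm38) reached 1 FPKM in each of the 15 cells (exact binomial 95% interval 78.2% to 100%, here and below for counting error only). It stood at 1.24 in cell 9, at a median of 9.06 and at 13.69 in cells 4 and 13. In these 2 cells Fabp4 was the highest row of all 8446, and in cell 12 (13.26) it ranked 2nd. In cell 9 it ranked 4176th, near the middle of the table, and in cell 11, the next lowest at 4.95, it ranked 2112th. Cell 11 had the most rows at its lowest value (1974), and cell 9 had 1645, fewer than cells 1 (1859) and 14 (1877). Whether this breadth plays a part in the low values was not tested.

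Lpl (ENSMUSG00000015568, chromosome 8, 68880491 to 68907448, plus strand) was also detected in all 15 cells. It ranged from 1.19 in cell 9 through a median of 7.74 to 10.81 in cell 12. It was low in cells 9, 2 (2.30) and 7 (2.78), and between 5.13 and 10.81 in the other 12. Cells 2 and 7 thus carried Fabp4 at 7.46 and 6.29 beside little Lpl.

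Cd36 (ENSMUSG00000002944, chromosome 5, 17781690 to 17888801, minus strand) divided the cells more sharply than the other uptake genes. Cell 4 stood at 9.22, cell 12 at 8.76, cell 13 at 8.48, cell 6 at 8.20 and cell 15 at 6.63. The next cell was cell 5 at 2.91, and the remaining cells lay between 0 and 2.06, with cells 9 and 10 listed at 0. At 1 FPKM 11 of 15 cells were detected (73.3%, 95% interval 44.9% to 92.2%), while 6 cells reached 5 FPKM. In cells 4, 6, 12, 13 and 15 the analysed markers of other Cd36-bearing cells were mostly low: the endothelial receptor Tek was at most 0.37 and the macrophage receptor Csf1r at most 1.78, but Esam, an adhesion molecule of endothelial cells, stood at 10.90 in cell 13 and 2.97 in cell 15. Esam was next highest in cell 5 (7.83), where Cd36 was at 2.91, and cells 5 and 13 are the 2 cells highest in mural markers. What the cells' Esam or mural markers contribute to Cd36 was not tested. Of the 12 genes in each of the endothelial and immune lists 2 were analysed.

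Plin2 (ENSMUSG00000028494, chromosome 4, 86648386 to 86670060, minus strand) was detected in 14 of 15 cells (93.3%, 95% interval 68.1% to 99.8%). It was lowest in cell 8 (0.67), had a median of 6.59 and was highest in cell 13 (12.47), where it ranked 6th of all rows. Cell 4 followed at 10.14 and cell 12 at 9.45. Cell 9, lowest in Fabp4 and Lpl and at 0 with cell 10 in Cd36, had Plin2 at 6.59, so the droplet gene did not always follow the uptake genes.

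Scd1 (ENSMUSG00000037071, chromosome 19, 44394455 to 44407879, minus strand) was the most often detected synthesis gene, in 7 of 15 cells (46.7%, 95% interval 21.3% to 73.4%). It was at 0.09 in cell 3, had a median of 0.93 and reached 7.05 in cell 12, followed by cell 10 at 5.90. Cells 6 (3.99), 1 (3.35) and 8 (3.35) were intermediate.

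Fasn (ENSMUSG00000025153, chromosome 11, 120805846 to 120824547, minus strand) was low in most cells and at most 3.21 in any. In cells 12 and 14 it lay at percentiles 63.1 and 63.2 of the rows. Only cell 14 (3.21), cell 12 (3.18), cell 7 (2.30) and cell 11 (1.32) passed 1 FPKM, which is 26.7% of cells (95% interval 7.79% to 55.1%). Its lowest value was 0.01 in cell 8 and its median 0.24.

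Acaca (ENSMUSG00000020532, chromosome 11, 84129672 to 84401651, plus strand) was detected in few cells. Cell 5 (8.96), cell 1 (3.90) and cell 9 (1.69) passed 1 FPKM, 20.0% of cells (95% interval 4.33% to 48.1%). None of the 3 had Fasn at 1 FPKM, which only 4 of 15 cells reached. With so few detecting cells, this lack of overlap cannot show whether Acaca and Fasn go together. Elsewhere Acaca lay between 0.0023 and 0.84. Cell 5 is the cell highest in mural markers, and what that contributes was not tested. The predicted gene Gm11437 overlaps Acaca on the opposite strand, so the value of Acaca is uncertain there if counting ignored strand. Gm37391 overlaps Acaca on the same strand, where the value is uncertain with or without strand.

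Pnpla2 (ENSMUSG00000025509, chromosome 7, 141455198 to 141460743, plus strand) was high in a single cell. Cell 12 stood at 7.498, followed by cell 7 at 2.20, cell 15 at 1.18 and cell 2 at 1.15. Its median was 0.18, and 5 cells were listed at 0. It was detected in 4 cells (26.7%, 95% interval 7.79% to 55.1%), of which 1 reached 5 FPKM.

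Within each cell the mean of the 3 uptake genes was above the mean of the 4 synthesis and lipolysis genes. The uptake mean ran from 0.81 in cell 9 through a median of 6.40 to 10.998 in cell 4. The synthesis and lipolysis mean ran from 0.10 in cell 3 through a median of 0.89 to 4.46 in cell 12. The difference was above 0 in 15 of 15 cells, with a median of 5.09 and a range from 0.27 in cell 9 to 10.82 in cell 4. Gene by gene, the uptake gene was the higher in 160 of 180 pairs (88.9%), and in cells 3, 4, 6, 12, 13 and 15 in all 12 of their pairs.

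The 20 exceptions were mostly pairs with Cd36. Fabp4 exceeded Scd1, Fasn and Pnpla2 in all 15 cells and Acaca in 14, with cell 9 as the exception. Lpl likewise fell below Acaca in cells 5 and 9 only. Cd36 exceeded Fasn in 10 cells and each of the other 3 genes in 11. Plin2 was above Pnpla2 in 15 cells, Fasn in 14, Acaca in 13 and Scd1 in 12.

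FPKM divides by transcript length, whereas a 3′ library gives long transcripts no more reads than short ones, so the long transcripts of Fasn (10050 nt) and Acaca (9513 nt) are understated against the short coding transcript of Fabp4 (896 nt). With each value multiplied by the longest coding transcript the median difference was 4.78, and it was above 0 in 14 cells, with cell 9 at −0.34. On that scale Lpl (median 9.77) stood above Fabp4 (8.91).

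**Figure D2:**
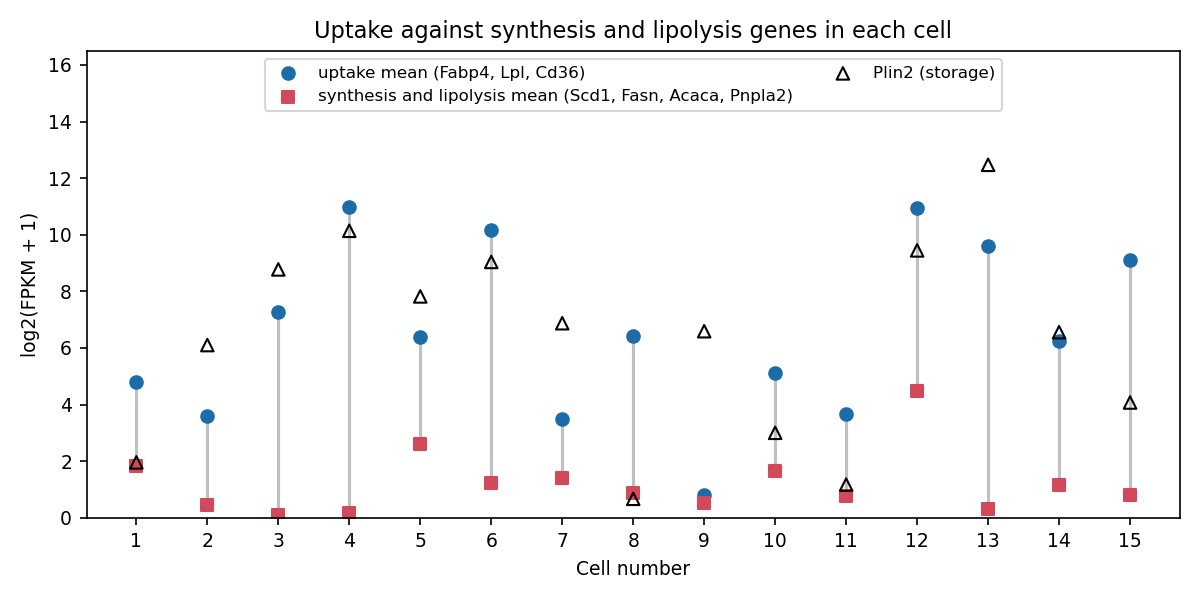
For each cell (x axis, cell number) the mean log2(FPKM + 1) of the uptake genes (blue circles), the mean of the synthesis and lipolysis genes (red squares) and the level of Plin2 (open triangles), with a grey line joining the means. The circle is above the square in all 15 cells, by 0.27 in cell 9 and by 10.82 in cell 4.

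Fabp4, Cd36 and, less closely, Lpl and Plin2 were high in the same cells. Correlations below are over the 15 cells, which share animals, a library method and a common value distribution, and are given as descriptions with no p-value. Fabp4 and Cd36 had a Spearman rho of 0.934 and a Pearson r of 0.873, and r was 0.895 without cells 4 and 9, which lay farthest from the median of Fabp4 (cell 13 ties with cell 4 and was kept). Without the mural-marker cells 5 and 13 rho was 0.908, and without cell 12 it was 0.925.

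Lpl had a rho of 0.688 with Fabp4 (r 0.7504, and 0.600 without cells 4 and 9) and of 0.711 with Cd36 (r 0.634, and 0.563 without cells 2 and 9). Without cells 5 and 13 these rho values were 0.890 and 0.864. Both cells joined a high Fabp4 (10.00 and 13.69) to a lower Lpl (6.30 and 6.69). Plin2 had a rho of 0.727 with Fabp4 (r 0.618, and 0.769 without cells 4 and 9), of 0.654 with Cd36 (r 0.644, and 0.548 without cells 4 and 12) and of 0.300 with Lpl (r 0.164, and 0.238 without cells 2 and 9).

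**Figure D3:**
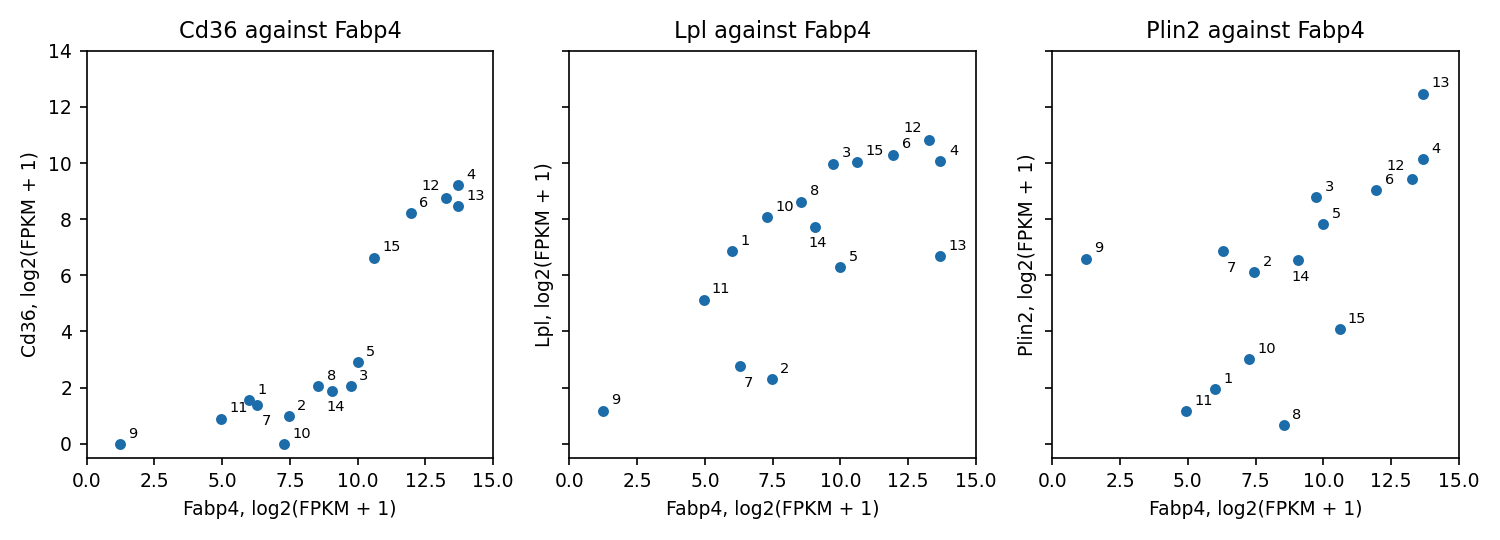
Cd36, Lpl and Plin2 (y axes) against Fabp4 (x axis), all as log2(FPKM + 1), with 1 point for each numbered cell. Cd36 is at most 2.91 in the cells with Fabp4 at 10.00 or less and at least 6.63 in the others, while cells 8 and 9 depart from the trend of Plin2.

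The synthesis and lipolysis genes did not form such a group. Scd1 was detected in 7 cells, Fasn and Pnpla2 in 4 each and Acaca in 3, so correlations of these genes mostly order values below 1 FPKM. The uptake mean had a rho of −0.0714 (r 0.205) with their mean, and the sign of rho changed with the cells left out. Among these genes, the highest rho was that of Fasn with Pnpla2 (0.509, r 0.651). Without cells 12 and 14 this rho was 0.407 and r was 0.772. Acaca had rho values of −0.0214 with Fasn and −0.118 with Scd1. Acaca was lower where uptake genes were higher (rho −0.559 with Fabp4 and −0.539 with Lpl), but Pearson's r was −0.156 and −0.217, and only 3 cells had Acaca at 1 FPKM. Scd1 went the other way with Lpl (rho 0.50, r 0.476, and r 0.411 without cells 2 and 9) and had a rho of 0.105 with Fabp4. Cell 12 joined both sides: it held the highest Lpl, Scd1 and Pnpla2, the 2nd highest Fasn, Fabp4 at rank 2 of its rows and Cd36 at 8.76.

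Among the other 3948 rows detected in 8 or more cells, Cd36 had the highest rho with Fabp4, and Fabp4 the highest with Cd36. For Fabp4 the next were Rnu3a (0.844), a small nucleolar RNA of a multi-copy family whose value is uncertain, and Sav1 (0.763), a Hippo pathway scaffold. For Cd36 they were Cox8a (0.768), a subunit of cytochrome c oxidase, and the adhesion protein gene Tln1 (0.736). Lpl was most like Adh1 (0.882), an alcohol dehydrogenase that also oxidises retinol, then Rarres2 (0.826), which encodes the adipokine chemerin, and then the Rnu3b copies (0.818 for each of 4 rows that share a median of 2.21). Plin2 was most like Fscn1 (0.839), an actin-bundling protein, Stt3b (0.796) and Kdm5a (0.794). With 15 cells and 3948 rows, high values of rho arise among unrelated genes too.

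The lowest rho of Fabp4 was with Col14a1 (−0.888), a fibril-associated collagen, that of Lpl with Emc10 (−0.832), and that of Plin2 with App (−0.896), the amyloid precursor protein. P4ha1, a collagen prolyl hydroxylase, and Cdk5rap3 tied at −0.853 for Cd36. Col1a2 and Prrx1 were chosen after their values were seen. Col1a2, a main chain of type I collagen, had a rho of −0.804 with Fabp4 (r −0.641, and −0.791 without cells 4 and 9) and of −0.808 with Cd36. Prrx1, the gene that drives the Cre, had a rho of −0.811 with Plin2 (r −0.7502, and −0.682 without cells 8 and 13), of −0.744 with Fabp4 and of −0.724 with Cd36. Without cells 12 and 13, in which Prrx1 was at 0.22 and 0.43, these 3 were −0.731, −0.632 and −0.602. With Lpl both genes had weaker values, −0.461 for Prrx1 and −0.482 for Col1a2. Prrx1 was highest in cell 11 (7.56), where Plin2 was at 1.17.

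Pparg is the nuclear receptor that directs adipocyte differentiation and is known to drive Fabp4, Lpl and Cd36. It had a rho of 0.633 with Fabp4, 0.653 with Cd36, 0.516 with Lpl and 0.373 with Plin2. Pparg was detected in only 7 of 15 cells (median 0.90), so it is not among the rows detected in 8 or more cells. Its rho values therefore partly order cells with values near 0. Pearson's r with Lpl was 0.375, and 0.234 without cells 2 and 9, and the rho with Plin2 was 0.116 without cells 12 and 13. The 2 cells highest in Fabp4 differed: cell 13 had the highest Pparg (9.29) and cell 4 had Pparg at 0.20. Cell 14 had Pparg at 6.25 beside Cd36 at 1.89.

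**Figure D4:**
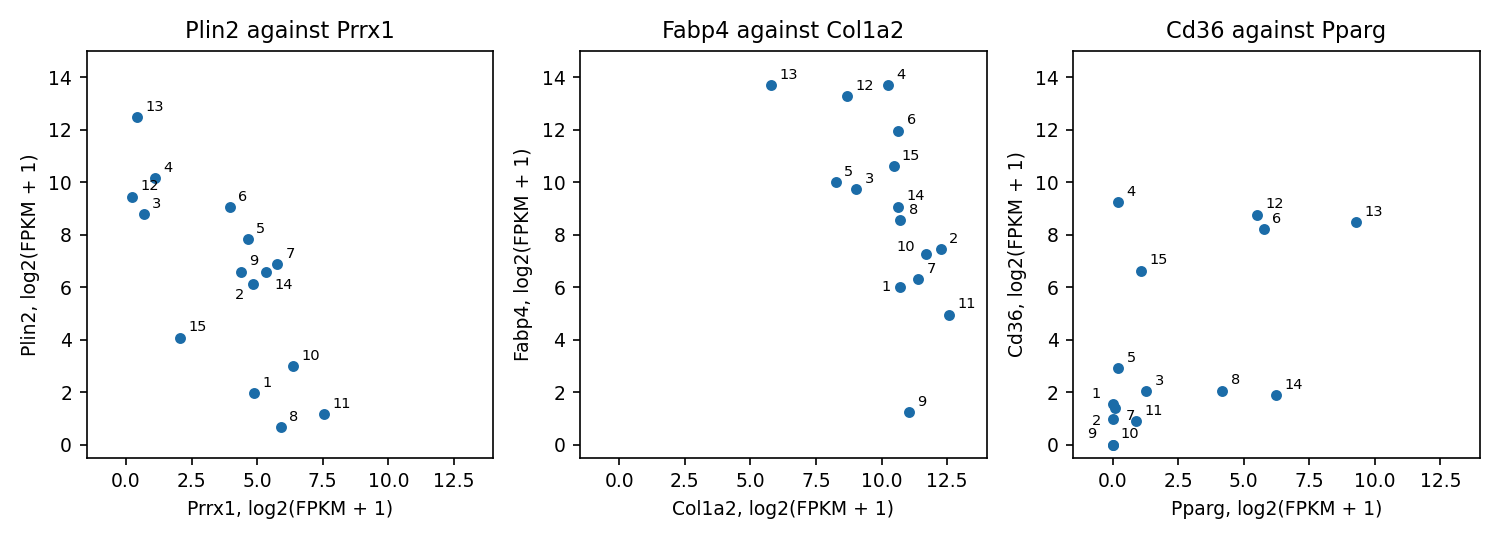
Plin2 against Prrx1, Fabp4 against Col1a2 and Cd36 against Pparg, all as log2(FPKM + 1), with 1 point for each numbered cell. Plin2 is at 12.47 in cell 13, where Prrx1 is at 0.43, and at 1.17 in cell 11, where Prrx1 is at 7.56, and Cd36 is at 9.22 in cell 4 although Pparg is at 0.20 there.

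Relatives of the 8 genes showed other patterns, and 5 of 21 listed paralogues were analysed. Fabp5, the epidermal-type carrier, had a median of 0.48 and 6 cells above 1 FPKM, led by cell 5 (7.38), cell 6 (6.85) and cell 13 (6.33). Fabp7, the brain-type carrier, passed 1 FPKM in 5 cells and peaked in cell 13 (7.79). Scd2, the desaturase next to Scd1 in kind, was detected more often than Scd1, in 12 cells, but never above 4.07 (cell 4, where Scd1 was at 0.51). In cell 12, where Scd1 was highest, Scd2 was at 0.66. Scd1 and Scd2 are close in sequence, and the counting of reads common to them is not given in the labels. Plin3, a droplet protein with a broad tissue range, had a median of 2.85 over 13 detecting cells and peaked in cell 11 (6.74), where Plin2 was at 1.17. Scarb2, a lysosomal relative of Cd36, was detected in 13 cells with a median of 4.54.

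Other genes of lipid handling were detected about as often as genes in general, with fatty acid oxidation the furthest above and cholesterol synthesis the furthest below among the 8 lists. Of 170 further lipid genes in 8 lists 107 were analysed, and 59 of these (55.1%) were detected in 8 or more cells, against 46.8% of all rows. Their median of gene medians was 1.48 against 0.79 for all rows.

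Of the fatty acid uptake and activation list, 9 of 18 analysed genes were detected in 8 or more cells. Dbi, which binds acyl-CoA, led with a median of 9.42, followed by the caveolar genes Cav1 (6.84) and Cavin1 (6.21), the lipoprotein lipase inhibitor Angptl4 (6.77) and Sel1l (4.26), which serves the folding of lipoprotein lipase. Angptl4 passed 1 FPKM in all 15 cells and peaked in cells 13 (9.11) and 4 (8.95), the cells highest in Fabp4. In cells 9 and 11, the cells lowest in Fabp4, Angptl4 still stood at 7.16 and 7.67. The acyl-CoA synthetase Acsl1 was detected in 4 cells.

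The triglyceride and droplet list had 8 of 17 genes in 8 or more cells. Rab18, a droplet-associated GTPase, had a median of 6.18, and Dgat1, which makes triglyceride from diglyceride, of 4.79. G0s2, an inhibitor of the lipase encoded by Pnpla2, passed 1 FPKM in 11 cells, led by cell 14 (9.79), cell 13 (8.70) and cell 12 (8.60). Hilpda, a further inhibitor of this lipase, was also detected in 11 cells, highest in cell 13 (7.74). Agpat2, an acyltransferase of triglyceride synthesis, was detected in 7 cells, highest in cell 12 (8.27).

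In the fatty acid synthesis and desaturation list, which does not hold Scd1, Fasn or Acaca, 9 of 14 genes reached 8 cells. The highest medians were those of Tecr (6.43), Elovl1 (5.81), Hsd17b12 (4.90), Hacd1 (4.73) and Elovl5 (3.04), which act in fatty acid chain elongation. Acly, which supplies acetyl-CoA, was detected in 8 cells with a median of 1.58. Of 5 analysed lipolysis genes, 3 reached 8 cells, led by Abhd5, the co-activator of the Pnpla2 lipase (median 2.27, highest in cell 12 at 6.13), the lysosomal lipase Lipa (1.76) and Mgll (1.51). The median of gene medians was 2.64 for synthesis, 1.63 for uptake and activation and 1.51 for lipolysis. All of these lists leave out the 8 genes, so their order cannot be set against that of the 8 genes.

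Fatty acid oxidation was the broadest of the lists by share, with 15 of 20 genes. Etfb (9.14), Acaa2 (6.89), Etfa (6.51), Acadm (6.37) and Hadh (4.80) led it, while Cpt1a, which controls entry of fatty acids into mitochondria, had a median of 1.31. Cholesterol synthesis had 5 of 14 genes, led by Ebp (6.27). Of 12 lipid regulators 5 reached 8 cells, among them Cebpd (6.53), Cebpb (3.32), Srebf1 (1.97), Nr1h3 (1.89) and Nr1h2 (1.74). Srebf1, a driver of fatty acid synthesis genes, was highest in cell 10 (6.55) and cell 12 (4.17), the cells highest in Scd1. In the next cells by Scd1, Srebf1 was at 0.87 (cell 6), 0.08 (cell 1) and 3.59 (cell 8). Cell 11 had Srebf1 at 3.11 beside Scd1 at 0.29. Of the lipoprotein and cholesterol export list 5 of 7 genes reached 8 cells, led by Apod (6.80), Npc2 (6.50) and Apoe (6.40).

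**Figure D5:**
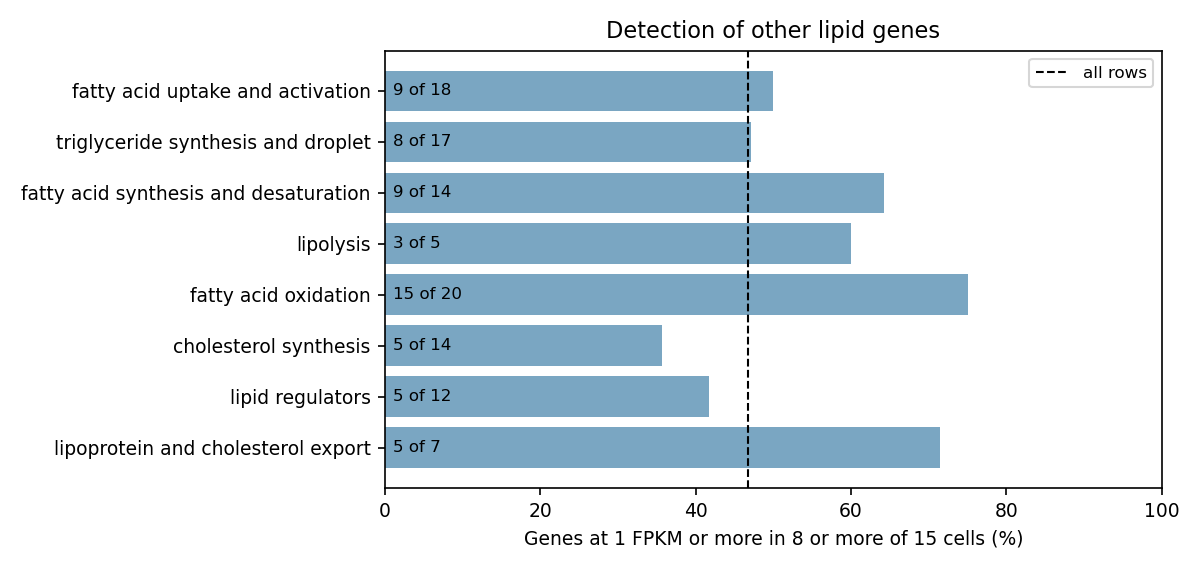
Share of the analysed genes of 8 lipid lists detected at 1 FPKM or more in 8 or more of 15 cells (x axis, percent, from 0), with the number of genes printed in each bar. The dashed line marks the share over all 8446 rows (46.8%), and fatty acid oxidation has 15 of 20 genes and cholesterol synthesis 5 of 14.

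Mature adipocyte markers were represented by 2 of 10 genes. Car3, a carbonic anhydrase abundant in adipocytes, was detected in 9 cells and stood at 12.98 in cell 12, against at most 7.09 elsewhere. Cfd, the adipokine adipsin, passed 1 FPKM in 4 cells, led by cell 4 (6.65), and stood at 0.64 in cell 12. Adipoq, Plin1, Lipe and Cidec were not analysed here. Of the thermogenic list, Tmem26 was detected in no cell and Cox7a1 in 2.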

How the data were processed

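The table holds 8446 rows and 15 cell columns, each tied to its cell through the number its name shares with the sample title, and 18 further columns have no name and no values. Libraries were made with a 3′ SMART-Seq v4 kit and Nextera XT, per the labels' protocols. TopHat2, Cufflinks and GRCm38 are named in the submitters' processing notes, without versions, settings or the filter on rows. The deposited values are on a log2 scale, inferred from the values: they end at 13.69, and read as log2(FPKM + 1) they sum to a mean of 592948 FPKM per cell. Sorted columns differed by at most 0.0354 above 0.2, as after quantile normalization. Genes were matched by identifier (8431 of 8441 distinct identifiers matched), with coordinates and transcript lengths from GENCODE M21 on GRCm38.

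Thresholds of 1 and 5 FPKM were applied on the log2 scale, and intervals are exact Clopper-Pearson 95% intervals. Spearman rho was computed with numpy 2.4.6 and scipy 1.17.1 and checked on simulated data. Named genes were the 8 members, their analysed paralogues, up to 5 genes of each list by median, cell-restricted genes, and the 3 rows most and the 1 least like each widely detected member. Genes outside this rule were named after their values were seen. Members and lists were chosen with earlier results of these data known.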

Additional observations from a re-analysis of the deposited data

How the results depend on the processing

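The uptake mean stayed above the synthesis and lipolysis mean in all cells used under a pseudocount of 0.1, the longest transcript of any type, percentiles within the cell (median difference 35.5 points), medians in place of means, the omission of Fabp4, and the omission of cells 5 and 13, of cells 1, 11 and 14, or of cell 12. Under the coding transcript length it did so in 14 of 15. This length and the omission of cell 12 were added after the data were seen. The rho of the uptake mean with the synthesis and lipolysis mean (−0.0714) changed sign to 0.205 as Pearson's r and to 0.0220 without cells 5 and 13 or without the 2 cells farthest from the median, the latter added later, and the cause was not tested. The count of 59 lipid genes in 8 or more cells was 38 at 5 FPKM (35.5% against 32.6% of all rows) and 28 when 12 cells were required (26.2% against 26.6%), since both settings are stricter for every row. Cd36 was detected in 6 cells at 5 FPKM, and with 1% of the gene's highest value also required Fabp4 was detected in 11, Plin2 in 10 and Cd36 in 6. No paired analysis was possible because there is 1 group. Depth is unknown, so a low value of a single cell cannot be read as absence: Tbp, which every cell uses, was detected in 3 cells.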

Other observations

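Cells 12 and 15 detected more of the 107 further lipid genes than the other cells. Each detected 74 (69.2%), against 53 in cell 6 to 66 in cell 8 elsewhere. Within any single cell, 51.7% of all rows are detected by construction. Cell 15 held the highest value of 14 of these lipid genes and cell 12 of 13 (13.1% and 12.1%). These cells held the highest value of 9.79% and 6.20% of all rows. This count was chosen after the values were seen. The cells differed in which genes these were: Dbi, Cav1, Dgat1, Agpat2, Abhd5, Etfb and Hadh were highest in cell 12, and Rab18, Hsd17b12, Insig2, Cpt1a, Slc25a20 and Hmgcs1 in cell 15. The mural list had a mean of 1.57 in cell 12 and 1.60 in cell 15, but single markers were higher: Acta2 stood at 5.23 in cell 12 and Abcc9 at 4.42 in cell 15. The stromal progenitor list had a mean of 6.14 in cell 12, below all cells but cell 13 (5.63), and of 8.39 in cell 15, and Cd34 stood at 2.05 and 7.87.

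Apoe, Apod and Pltp, which act on lipoproteins outside the cell, varied widely between cells. Cells 3 (13.26), 12 (12.09) and 2 (11.53) led Apoe, which was at 2.04 in cell 13. Apod was at 13.26 in cell 8 and 0.53 in cell 13, and Pltp at 9.88 in cell 8. Soat1, which esterifies cholesterol for storage, passed 1 FPKM in 7 cells and stood highest in cells 6 (8.82) and 9 (7.13).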
